A study of Mus musculus with 8 samples.

Results

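The natriuretic peptide system was examined in left ventricular RNA through 8 genes: the peptide precursors Nppa, Nppb and Nppc, the processing proteases Corin and Furin, and the receptors Npr1, Npr2 and Npr3. The genes were chosen by name from the 55487 Ensembl gene identifiers of the count files, and all 8 were found through the GENCODE M21 annotation of the mouse build GRCm38. Of these, 7 were among the 14695 genes abundant enough to be tested, and Nppc was not. The 8 libraries came from left ventricles of C57BL/6 mice at 12 weeks of age, 1 animal each. The 4 controls, titled NLC, carry the genotype label wild-type, and the 4 KO animals, titled CM-ADGRF5-KO, are labelled GPR116-/- in myocytes only. Adgrf5 (GPR116) is an adhesion G protein-coupled receptor. In each group replicates 1 and 2 were male and replicates 3 and 4 female. The sources used here do not give the promoter that drives Cre, the exons deleted, or whether controls carried Cre or a floxed allele. The comparison asks how ventricular transcripts differ when cardiomyocytes are labelled as lacking the receptor.

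Atrial natriuretic peptide (from Nppa) and B-type natriuretic peptide (from Nppb) are hormones that cardiomyocytes release when stretched, and C-type natriuretic peptide (from Nppc) acts mainly near its source in vessels and bone. In the adult heart Nppa is made mostly in the atria, while ventricular Nppa and Nppb are widely used markers of ventricular load. Corin, a serine protease of the cardiomyocyte surface, cleaves the atrial prohormone, and Furin, a proprotein convertase of the secretory pathway, cleaves the precursors of the other two peptides. Npr1 binds the atrial and B-type peptides and Npr2 the C-type peptide, and both receptors are guanylyl cyclases that make cyclic GMP. Npr3 lacks a cyclase domain and clears all 3 peptides from the circulation.

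The peptides share a ring closed by a disulfide bond, which the receptors recognise. The codons of this ring are shown for Nppb and Nppc because they are the stretch by which the precursor transcripts are related, and because gene counts depend on telling them apart. Each ring spans 17 codons, or 51 bases, in exon 2 of 3 of its GENCODE M21 transcript. It lies at chr4:147986464-147986514 on the plus strand for Nppb and at chr1:86669667-86669717 on the minus strand for Nppc, both in GRCm38. Capitals mark the bases that both genes share.
Nppb ring: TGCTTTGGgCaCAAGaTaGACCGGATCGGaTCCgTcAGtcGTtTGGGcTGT
Nppc ring: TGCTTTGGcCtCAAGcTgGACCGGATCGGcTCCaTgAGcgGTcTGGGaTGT
The pair had the same base at 40 of the 51 positions (78.4%), and the longest identical run was 11 bases. Nppa (chr4:148000722-148002079) and Nppb (chr4:147985788-147987205) lie side by side on the plus strand of chromosome 4.

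The 250 bases before the RefSeq start of Nppa (GRCm38.p6, chr4:148000472-148000721, plus strand) are shown because the factors examined further on include those whose motifs it holds. Capitals mark the motif matches.
Nppa upstream: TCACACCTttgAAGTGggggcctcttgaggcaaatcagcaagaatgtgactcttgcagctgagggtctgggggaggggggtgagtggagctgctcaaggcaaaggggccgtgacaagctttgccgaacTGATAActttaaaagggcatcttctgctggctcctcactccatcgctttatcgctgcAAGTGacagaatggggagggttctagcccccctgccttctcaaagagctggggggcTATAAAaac
Both strands of the 250-base windows of all 8 genes were searched for 7 motifs, and no match overlapped another of these motifs. The Nppa window held the T-box motif TCACACCT at -250 to -243, the NKX2-5 motif AAGTG at -239 to -235 and at -65 to -61, the GATA motif TGATAA at -122 to -117, and TATAAA at -9 to -4. The Nppb window held the TEAD motif GGAATG at -105 to -100, TGATAA at -95 to -90, the second GATA motif AGATAA at -84 to -79, and TATAAA at -31 to -26. Its letters are not printed because the GENCODE transcript of Nppb begins earlier than the RefSeq one and covers part of the window. The window is chr4:147985650-147985899 and the GENCODE gene begins at 147985788. All the Nppb matches listed therefore lie inside the annotated gene. Among 32851 windows of the same length, TCACACCT was present in 1.12%, TGATAA in 7.94%, AGATAA in 9.99%, GGAATG in 12.6%, TATAAA in 12.4%, AAGTG in 40.7% and the CArG box in 1.47%. The windows of Corin, Npr1, Npr2 and Npr3 held none of the 7 motifs, Nppc held TATAAA, and 1 of 2 Furin windows held AAGTG 4 times and TATAAA once. A match is a run of letters and was not tested as a binding site.

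The libraries held 25.33 to 39.62 M reads in genes. Levels are given as CPM, read counts scaled to library size with TMM factors, and fold changes as log2 of KO over control from edgeR's quasi-likelihood test with sex as a term, with Benjamini-Hochberg adjustment over all 14695 genes and a threshold of 0.05. Adgrf5 averaged 233 ± 17.4 CPM in the controls against 224 ± 15.7 CPM in KO (SD, n = 4 per genotype), a log2 fold change of -0.05 (SE 0.0754, adjusted p = 0.782). The whole-gene count therefore does not check the KO labels, since the gene is also expressed outside cardiomyocytes and the deleted stretch is not given. The 5 ventricular transcripts Myl2, Myl3, Irx4, Hey2 and Irx5 summed to 11620 to 15750 CPM over the 8 libraries. The sum is mostly Myl2 and Myl3, with control means of 7084 and 6084 CPM, and no cut-off was set. It is not a test of the tissue label and does not measure atrial transcripts.

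Some of the ventricles carried atrial transcripts, and Nppa too is made mostly in the atria. Whether atrial transcripts set the Nppa level was not tested. Myl7, the atrial myosin regulatory light chain, was measured at 40.7, 157, 0.371 and 983 CPM in control replicates 1 to 4 and at 0.265, 8.75, 183 and 8.12 CPM in KO replicates 1 to 4. Control replicates 2 and 4 and KO replicate 3 were above 100 CPM, and control replicate 4 stood 14.9-fold above the mean of the other controls. Its genotype difference was -3.32 (log2, SE 1.54, adjusted p = 0.423). Of 10 atrial markers 9 were tested, and all 9 were highest in control replicate 4, as were 14.9% of all tested genes. Bmp10 was not tested and had 0 reads in some libraries. The summed level of the 10 markers was 160 to 2737 CPM in controls and 173 to 670.2 CPM in KO. The median log2 change of the 9 was -0.75, with 0 of 9 called by edgeR, limma voom or DESeq2. An unadjusted p under 0.05 in edgeR was found for 3 of 9, beside 11.9% of all tested genes. In bulk tissue, fewer cells of a type and less RNA per cell cannot be told apart.

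Per kilobase of annotated exon, the members kept a wide order of abundance in these ventricles. The median level over the 8 libraries was 613 RPKM (CPM divided by exon length in kilobases) for Nppa, with a range of 328 to 4370. Nppb followed at 150 RPKM (79.2 to 284), Corin at 31.1 (26.5 to 44.1), Npr2 at 17.7 (16.7 to 19.8), Furin at 11.0 (9.93 to 13.8), Npr1 at 7.87 (6.32 to 8.34) and Npr3 at 1.63 (1.12 to 3.29). Nppc came last at 0.0162 RPKM (0 to 0.102). No gene's range overlapped that of its neighbour in this order. Among the receptors the order was therefore Npr2, the C-type peptide receptor, then Npr1, then the clearance receptor Npr3, in every library.

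The peptide genes varied most between animals and the cyclase receptors least. The highest library was 13.3-fold above the lowest for Nppa and 3.59-fold for Nppb, but 1.32-fold for Npr1 and 1.19-fold for Npr2. Corin spanned 1.67-fold, Furin 1.39-fold and Npr3 2.94-fold. For Nppa, Npr3 and Corin the highest library was control replicate 4. It stood at 3778 CPM of Nppa, with KO replicate 3 next at 1034 CPM. For Npr3 it stood at 30.9 CPM, with control replicate 3 next at 16.7 CPM. These ranges and the variation given next include that library. The biological coefficient of variation within groups was 0.641 for Nppa, higher than for 99.7% of tested genes, and 0.303 for Nppb, higher than for 95.4%. It was 0.222 for Npr3, 0.129 for Corin, 0.113 for Furin, 0.107 for Npr1 and 0.0826 for Npr2, the last at the 6.79th percentile of tested genes.

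With genotype, none of the 7 tested members passed the threshold in edgeR, limma voom or DESeq2, beside 0.102% of all genes tested in edgeR (15 of 14695), 0.0885% of the same genes in limma voom, and 0.501% of the 27953 genes that DESeq2 tested without the low count filter. DESeq2 on the 14695 filtered genes called 148 genes, and no member was among them. One member, Npr3, had an unadjusted p under 0.05, as did 11.9% of tested genes. The control and KO values of all 8 members overlapped, while those of 6.25% of tested genes did not. The median log2 change was -0.03 over the 7 members and -0.005 over all tested genes, with 3 members above 0 and 4 below, against 49% of tested genes above 0.

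Nppa, the precursor of atrial natriuretic peptide, was measured at 283, 446, 379 and 3778 CPM in control replicates 1 to 4 and at 864, 614, 1034 and 336 CPM in KO replicates 1 to 4. Control replicate 4, the library highest in Myl7, held 10.2 times the mean of the other controls, and the groups overlapped. The other 3 controls had a mean of 369 ± 81.6 CPM (SD, n = 3), and 3 of the 4 KO libraries lay above all of them. Over all 8 libraries the controls averaged 1221 ± 1710 CPM and the KO 712 ± 304 CPM (SD, n = 4 per genotype). KO over control gave a log2 fold change of -0.29 (SE 0.756, adjusted p = 0.884), with a 95% interval from 0.255-fold to 2.62-fold. Without control replicate 4 it turned to 0.95 (unadjusted p = 0.0145, adjusted p = 0.349 in edgeR). Without the library highest in Myl7 in each genotype, control replicate 4 and KO replicate 3, it was 0.63 (adjusted p = 0.507), and without KO replicate 4 it was 0.29. The direction of the Nppa difference thus depended on single libraries.

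Gm13054, annotated on the strand opposite Nppa, had 128 reads in all libraries together against 227792 for Nppa. It was measured at 0.412, 0.449, 0.776 and 1.28 CPM in control replicates 1 to 4 and at 0.238, 0.657, 0.421 and 0.226 CPM in KO replicates 1 to 4. Like Nppa, it was highest in control replicate 4. Since the strand setting of the counting is not given, reads from the pair may not be separated.

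Nppb, the precursor of B-type natriuretic peptide, was measured at 80.1, 61.9, 222 and 122 CPM in control replicates 1 to 4 and at 191, 112, 187 and 109.8 CPM in KO replicates 1 to 4. Its highest library was control replicate 3, which had almost no Myl7, and the male controls were its lowest. The controls averaged 122 ± 71.6 CPM and the KO 150 ± 44.9 CPM (SD, n = 4 per genotype). This is a log2 fold change of 0.43 (SE 0.315, adjusted p = 0.568), with an interval from 0.831-fold to 2.2-fold. It ranged from 0.14 without KO replicate 1 to 0.76 without control replicate 3, and was 0.048 without the 3 libraries above 100 CPM of Myl7 and 0.24 with the atrial marker score in the fit.

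Nppc, the precursor of C-type natriuretic peptide, was close to undetected. It had 9 reads in the 8 libraries together, 0, 0, 1 and 3 in control replicates 1 to 4 and 4, 0, 1 and 0 in KO replicates 1 to 4. In the 4 libraries with no read, the level could be as high as 0.104 to 0.122 CPM (3 counts, counting error only). The KO and control levels did not differ beyond the spread between libraries (exact two-sided permutation test, p = 0.83, smallest reachable p = 0.0286), and a difference was not detectable at this depth.

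**Figure D1:**
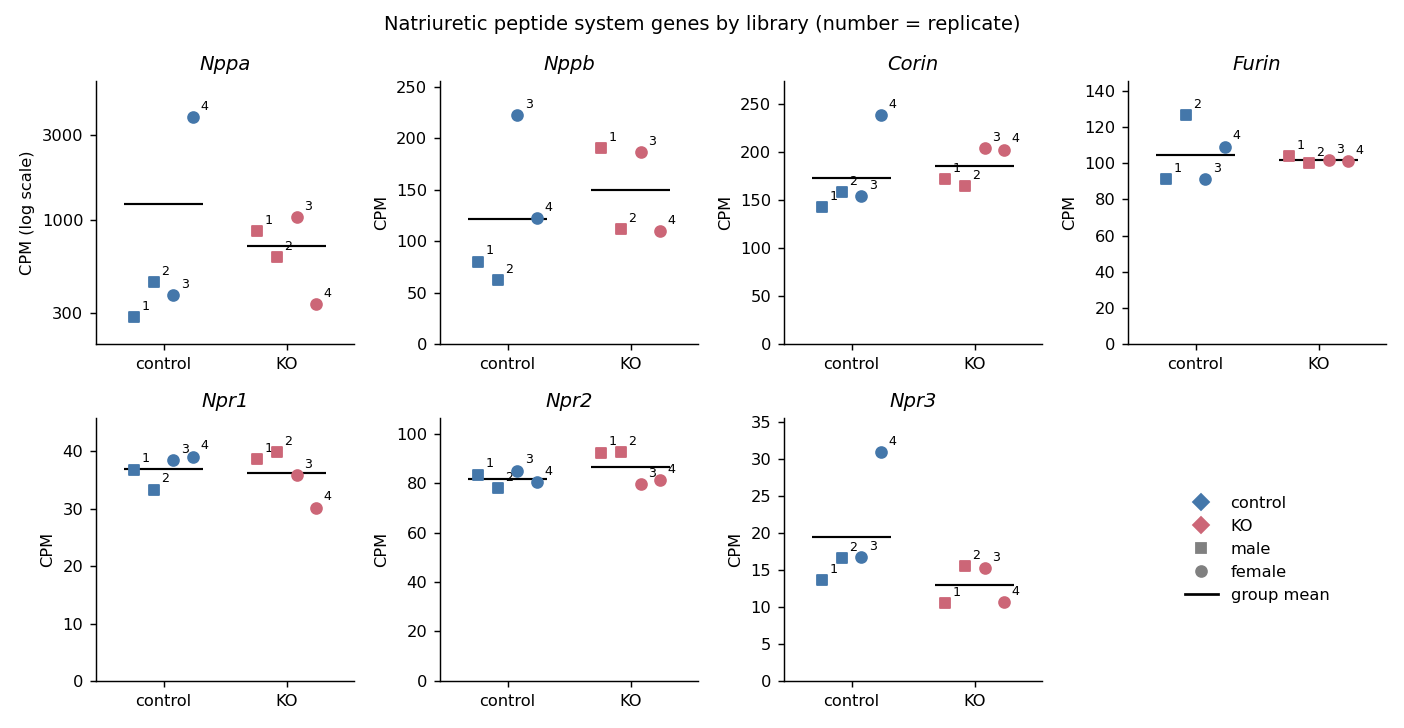
Level of the 7 tested genes in each library, in CPM (Nppa on a log axis, the others on linear axes from 0), for control and KO hearts. Squares are males and circles females, numbers are replicates, and horizontal lines are group means. Control replicate 4 lies far above the other libraries for Nppa, at 3778 CPM, and is also the highest for Npr3 and Corin, while Npr1 and Npr2 vary little.

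The genotype differences of both processing proteases were smaller than the spread between libraries. Corin, which converts the atrial prohormone, was measured at 143, 159, 154 and 238 CPM in control replicates 1 to 4 and at 172, 164, 204 and 203 CPM in KO replicates 1 to 4. Control replicate 4 was again the highest, at 1.57 times the mean of the other controls, which all lay below the KO libraries. Means were 174 ± 43.7 CPM for control and 186 ± 20.7 CPM for KO (SD, n = 4 per genotype), which gave a log2 fold change of 0.10 (SE 0.118, adjusted p = 0.714), with an interval from 0.897-fold to 1.29-fold. Without control replicate 4 it was 0.25.

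Furin was measured at 91.2, 126, 91.2 and 109 CPM in control replicates 1 to 4 and at 104, 100, 102 and 101 CPM in KO replicates 1 to 4. The KO libraries lay together inside the range of the controls. The controls averaged 105 ± 16.9 CPM and the KO 102 ± 1.71 CPM (SD, n = 4 per genotype), with a log2 fold change of -0.04 (SE 0.102, adjusted p = 0.888), with an interval from 0.832-fold to 1.14-fold.

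Among the receptors, only the clearance receptor Npr3 had an interval that lay wholly to one side of 0. It was measured at 13.6, 16.5, 16.7 and 30.9 CPM in control replicates 1 to 4 and at 10.5, 15.5, 15.2 and 10.7 CPM in KO replicates 1 to 4. Control replicate 4 was 1.98 times the mean of the other controls, and KO replicates 2 and 3 lay within the control range. Means were 19.4 ± 7.76 CPM for control and 13.0 ± 2.75 CPM for KO (SD, n = 4 per genotype). The log2 fold change was -0.55 (SE 0.226, unadjusted p = 0.0345, adjusted p = 0.382 in edgeR), with an interval from 0.482-fold to 0.967-fold, so the difference did not pass the threshold. Without control replicate 4 it was -0.28. Npr3 is expressed in the endocardium. The summed level of 8 endocardial markers was 202 to 249 CPM in controls and 165 to 194 CPM in KO, without overlap. Of single tested genes, 6.25% did not overlap, a share of genes and not of sums. The mean of the centred log2 levels, in which each marker counts alike, did overlap. It was 0.192, 0.013, -0.205 and 0.581 in control replicates 1 to 4. In KO replicates 1 to 4 it was -0.462, -0.159, 0.279 and -0.241. All 7 tested endocardial markers were below 0 in KO (median -0.21), with 0 of 7 called by edgeR, limma voom or DESeq2. An unadjusted p under 0.05 in edgeR was found for 3 of 7, beside 11.9% of all tested genes. None of the 8 endocardial markers had a library at 0. Of 8 endothelial markers, 7 were also below 0 in KO (median -0.18), with 3 at an unadjusted p under 0.05 in edgeR. The summed endothelial level overlapped, at 868.7 to 1061 CPM in controls and 826.4 to 917.8 CPM in KO. The part of either list in the Npr3 difference was not tested.

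Npr1, the cyclase receptor for the atrial and B-type peptides, was measured at 36.8, 33.3, 38.5 and 39.1 CPM in control replicates 1 to 4 and at 38.6, 39.9, 35.9 and 30.2 CPM in KO replicates 1 to 4. The KO libraries were both the highest and the lowest of the 8. Means were 36.9 ± 2.58 CPM for control and 36.2 ± 4.3 CPM for KO (SD, n = 4 per genotype), a log2 fold change of -0.03 (SE 0.0971, adjusted p = 0.897), with an interval from 0.841-fold to 1.13-fold.

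Npr2, the cyclase receptor for the C-type peptide, was measured at 83.5, 78.2, 85.1 and 80.4 CPM in control replicates 1 to 4 and at 92.4, 92.6, 79.8 and 81.3 CPM in KO replicates 1 to 4. The KO males were above every control and the KO females within the control range. Means were 81.8 ± 3.09 CPM for control and 86.5 ± 6.94 CPM for KO (SD, n = 4 per genotype), a log2 fold change of 0.08 (SE 0.0676, adjusted p = 0.629), with an interval from 0.951-fold to 1.17-fold. Its ligand gene Nppc was near 0 in the same libraries.

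**Figure D2:**
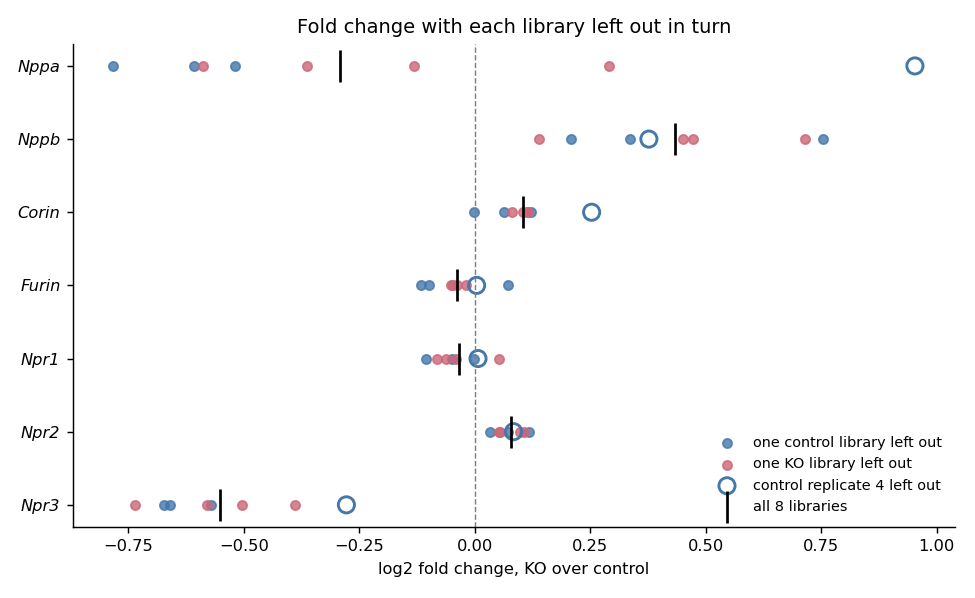
Log2 fold change of KO over control for the 7 tested genes (horizontal axis) with all 8 libraries (black bars) and with each library left out in turn (points, blue for a control and red for a KO library, open circles for control replicate 4). Nppa moves from -0.29 to 0.95 and Npr3 from -0.55 to -0.28 when control replicate 4 is left out, while Npr1, Npr2 and Furin stay near 0.

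Within the sexes, Nppb and Nppa pointed in opposite directions in males and females. In males, Nppb was at 61.9 to 80.1 CPM in controls and 112 to 191 CPM in KO, a log2 fold change of 1.09 (SE 0.347, unadjusted p = 0.0114, adjusted p = 0.198 in edgeR). In females it was at 122 to 222 CPM in controls and 109.8 to 187 CPM in KO, a log2 fold change of -0.22 (adjusted p = 0.981). The male difference exceeded the female one by 1.31 (SE 0.485, unadjusted p = 0.0241, adjusted p = 0.648 in edgeR). Nppa gave a log2 fold change of 1.02 in males, where both KO libraries (614 and 864 CPM) lay above both controls (283 and 446 CPM), and of -1.60 in females, where control replicate 4 set the control level. The difference between the sexes for Nppa was 2.62 (unadjusted p = 0.0531, adjusted p = 0.648 in edgeR).

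The receptors gave smaller values within the sexes. Npr1 was 0.16 in males and -0.23 in females, with a difference of 0.39 (unadjusted p = 0.031, adjusted p = 0.648 in edgeR). Npr2 was 0.19 in males (unadjusted p = 0.0372, adjusted p = 0.262 in edgeR) and -0.04 in females. Npr3 was -0.22 in males and -0.87 in females (unadjusted p = 0.0158, adjusted p = 0.969 in edgeR), the female controls including replicate 4. Corin was 0.16 and 0.05, and Furin -0.09 and 0.02, in males and females.

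None of these contrasts called a member in edgeR, limma voom or DESeq2. In males 2 of 7 members had an unadjusted p under 0.05 in edgeR, as did 17.5% of tested genes, and 0.0408% of genes were called. In females it was 1 of 7 against 5.12%, with 0% called, and for the difference between the sexes 2 of 7 against 7.46%, with 0% called. Each sex and genotype had 2 animals, so the order of single libraries within a sex is only a description.

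Between the sexes themselves, no member passed the threshold either, beside 0.299% of tested genes. Corin had a log2 difference, male over female, of -0.33 (SE 0.118, unadjusted p = 0.019, adjusted p = 0.302 in edgeR), the only member under 0.05 before adjustment, as were 12.8% of tested genes. Nppa differed by -1.20 (adjusted p = 0.538) and Nppb by -0.62 (adjusted p = 0.438). In both genotypes the mean of Corin was lower in males, at 151 against 196 CPM in controls and 168 against 204 CPM in KO (n = 2 each). Control replicate 4 is 1 of the 2 control females behind these values.

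**Figure D3:**
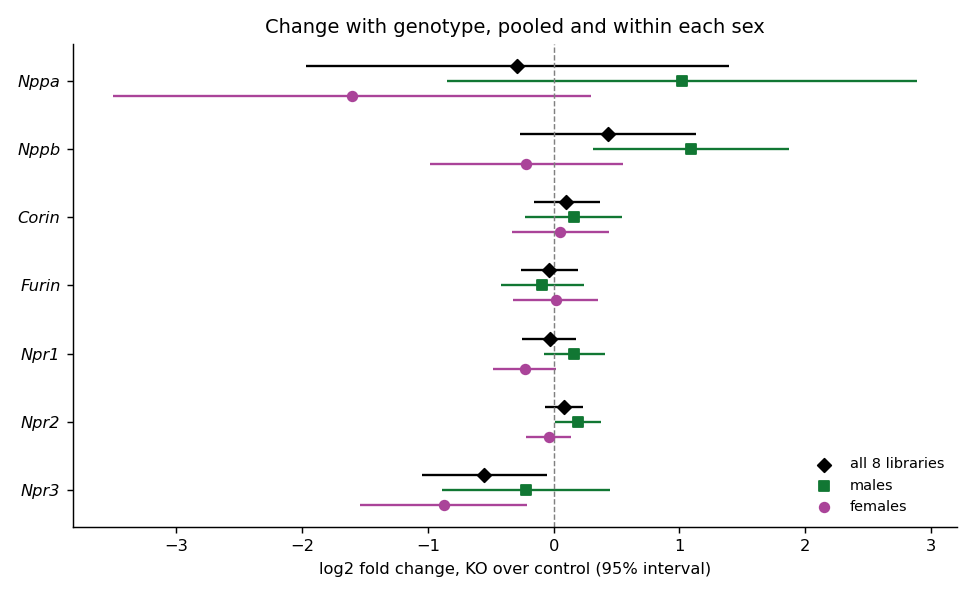
Log2 fold change of KO over control with its 95% interval for the 7 tested genes, over all 8 libraries (black diamonds, sex as a term), in males (green squares) and in females (purple circles). Nppb stands at 1.09 in males and -0.22 in females, and Nppa has the widest intervals.

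Ratios of members within a library, which do not depend on scaling between libraries, also overlapped between genotypes. The log2 ratio of Nppa to Nppb counts was 1.82, 2.85, 0.77 and 4.95 in control replicates 1 to 4 and 2.18, 2.46, 2.47 and 1.61 in KO replicates 1 to 4. Controls held both the lowest and the highest value. The difference of the means was -0.42 (exact permutation test, p = 0.714, adjusted p = 0.714 over 4 ratios), and it was 0.37 without control replicate 4.

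The log2 ratio of the clearance receptor Npr3 to the cyclase receptor Npr1 was -1.43, -1.01, -1.21 and -0.34 in control replicates 1 to 4 and -1.88, -1.37, -1.23 and -1.50 in KO replicates 1 to 4. Control replicate 4 had the highest value and KO replicate 1 the lowest. The difference of the means, KO minus control, was -0.50 (exact permutation test, p = 0.114, adjusted p = 0.343 over 4 ratios). The differences were -0.11 for Npr1 to Npr2 (exact permutation test, p = 0.171, adjusted p = 0.343) and 0.15 for Corin to Furin (exact permutation test, p = 0.571, adjusted p = 0.714). With 4 against 4 libraries, the smallest p these tests can reach is 0.0286.

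The members were set against Myl7 over the 8 libraries, on the log2 CPM scale, to show how far they moved with atrial transcripts. Pearson's r was 0.47 for Nppa (exact permutation over all pairings, p = 0.246, adjusted p = 0.328 over 8 genes), with Spearman's rho of 0.43 (p = 0.299, exact permutation). Without the 2 libraries farthest from the median of Myl7, control replicate 4 and KO replicate 1, r was 0.40. It was -0.001 without control replicate 4 alone and 0.67 without KO replicate 1 alone, so these 2 libraries pulled r in opposite directions. KO replicate 1, at 0.265 CPM of Myl7, held 864 CPM of Nppa, while control replicate 2, at 157 CPM of Myl7, held 446 CPM.

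For Npr3, r with Myl7 was 0.64 (exact permutation, p = 0.0789, adjusted p = 0.316) and 0.01 without the 2 farthest libraries. Npr2 ran the other way, with r of -0.71 (exact permutation, p = 0.0531, adjusted p = 0.316) and -0.54 without them. Nppb had r of -0.53 with and without them (exact permutation, p = 0.181, adjusted p = 0.328). Corin stood at 0.48, Furin at 0.47, Npr1 at -0.16 and Nppc at -0.07. None of the 8 relations passed adjustment, and the libraries include both genotypes and both sexes.

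**Figure D4:**
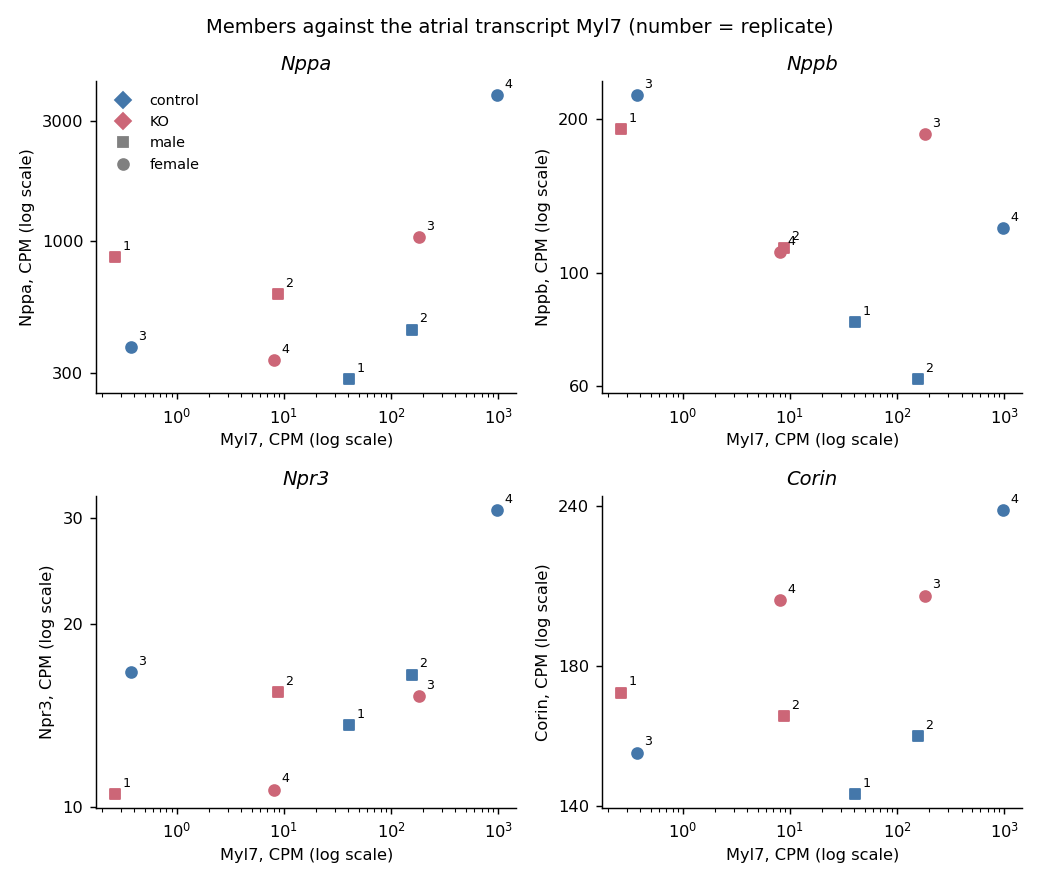
Levels of Nppa, Nppb, Npr3 and Corin against Myl7 in the 8 libraries, in CPM on log axes. Blue marks control and red KO, squares are males and circles females, and numbers are replicates. Control replicate 4 is the point at the far right, at 983 CPM of Myl7, and is the highest for Nppa, Npr3 and Corin but not for Nppb.

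The genes whose log2 CPM ran most like each member over the 8 libraries were listed from 12037 genes as a description. For Nppa they were Igfbp6 (r = 0.967), Sox10 (0.957), Vat1 (0.955), Lgals3 (0.952) and Bst1 (0.950). For Nppb they were Trmt44 (0.969), Tnfrsf12a (0.957), Id1 (0.951), Cd40 (0.949) and Gga3 (0.944). None of these 10 is among the atrial markers. At most the 9 tested atrial markers were among the 12037 genes, so their absence says little about a relation to atrial transcripts. For Npr3 they were Arl4a (0.972), Cercam (0.957), Nrf1 (0.957), Atp10a (0.956) and Zfp462 (0.955), and for Corin Mtus2 (0.981), Ptgfrn (0.973), Dusp18 (0.955), Usp11 (0.949) and Tarbp1 (0.948). The points of every such pair share library, animal and depth.

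Around the members, 13 further proprotein convertases and peptide-degrading proteases were examined, of which 9 were tested. None of the 9 was called by edgeR or limma voom. DESeq2 without the low count filter called 1, Mme, as lower, beside 0.501% of 27953 genes. Those 27953 include genes with few reads. On the 14695 filtered genes DESeq2 called 148. An unadjusted p under 0.05 in edgeR was found for 1 of 9, beside 11.9% of all tested genes. The list had 3 members above 0 and 6 below, with a median of -0.05. Mme encodes neprilysin, the membrane peptidase that degrades natriuretic peptides. It was measured at 9.07, 10.7, 7.22 and 8.89 CPM in control replicates 1 to 4 and at 5.85, 5.53, 5.16 and 6.24 CPM in KO replicates 1 to 4. Every KO library lay below every control, while 6.25% of tested genes also had groups that did not overlap. The log2 fold change of Mme was -0.65 (SE 0.126, unadjusted p = 0.000416, adjusted p = 0.129 in edgeR). The convertases Pcsk4 and Pcsk5 stood at 0.43 (SE 0.198) and -0.21 (SE 0.166), and the site-1 protease Mbtps1 at -0.12 (SE 0.0601).

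Downstream of the receptors, 18 of 19 genes that make, degrade, export or transmit cyclic GMP were tested. None was called by edgeR, limma voom or DESeq2. An unadjusted p under 0.05 in edgeR was found for 5 of 18, 1 higher and 4 lower, beside 11.9% of all tested genes. In all 5 were above 0 and 13 below, against 49% of tested genes above 0. The median was -0.26 against -0.005 over all tested genes. Prkg1, the cyclic GMP-dependent protein kinase, was measured at 12.0, 12.6, 13.7 and 16.7 CPM in control replicates 1 to 4 and at 8.65, 10.3, 13.1 and 12.1 CPM in KO replicates 1 to 4, a log2 fold change of -0.32 (SE 0.0978, adjusted p = 0.304 in edgeR). The phosphodiesterase Pde3b stood at -0.63 (SE 0.202, adjusted p = 0.326), and the soluble guanylyl cyclase subunit Gucy1a1 at -0.57 (SE 0.194, adjusted p = 0.344). Control replicate 4 was the highest library for 7 of the 18, beside 14.9% of all tested genes. The phosphodiesterase Pde1c was the one with a higher value, at 0.29 (SE 0.0958, adjusted p = 0.334).

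Of 8 tested substrates of the cyclic GMP-dependent kinase, 0 were called by edgeR, limma voom or DESeq2. In edgeR 0.102% of all tested genes were called. An unadjusted p under 0.05 in edgeR was found for 0 of 8, beside 11.9% of all tested genes. With so few genes, 0 says little about the list. Of the 8, 3 were above 0 and 5 below, with a median of -0.09. The members with the smallest p were Mrvi1 at -0.20 (SE 0.14), Rgs2 at 0.24 (SE 0.176), phospholamban (Pln) at -0.12 (SE 0.0869) and Hspb6 at 0.09 (SE 0.0692).

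Of 21 transcription regulators known to act on Nppa and Nppb, 20 were tested. None was called by edgeR, limma voom or DESeq2. An unadjusted p under 0.05 in edgeR was found for 3 of 20, beside 11.9% of all tested genes. Of the 20, 8 were above 0 and 12 below, with a median of -0.03. Nkx2-5, the cardiac homeobox factor whose motif occurs in the Nppa window shown, was measured at 79.5, 82.5, 71.3 and 81.1 CPM in control replicates 1 to 4 and at 139, 104, 89.0 and 83.5 CPM in KO replicates 1 to 4. The motif, AAGTG, was present in 40.7% of the windows searched. Every KO library lay above every control for Nkx2-5, the KO males most, while 6.25% of tested genes also had groups that did not overlap. The log2 fold change of Nkx2-5 was 0.39 (SE 0.112, adjusted p = 0.277 in edgeR). Mef2c stood at -0.26 (SE 0.0954), Tead1 at -0.28 (SE 0.112) and the deacetylase Hdac9 at -0.24 (SE 0.119).

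Of the 7 genes that neighbour Nppa and Nppb on chromosome 4, 0 were called by edgeR, limma voom or DESeq2. In edgeR 0.102% of all tested genes were called. An unadjusted p under 0.05 in edgeR was found for 0 of 7, beside 11.9% of all tested genes. A list this short says little by a count of 0. Of the 7, 4 were above 0, with a median of 0.02. The values were 0.14 for 2510039O18Rik, 0.20 for Miip, -0.09 for the mitofusin Mfn2 and 0.08 for the lysyl hydroxylase Plod1. None of the 7 was highest in control replicate 4.

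**Figure D5:**
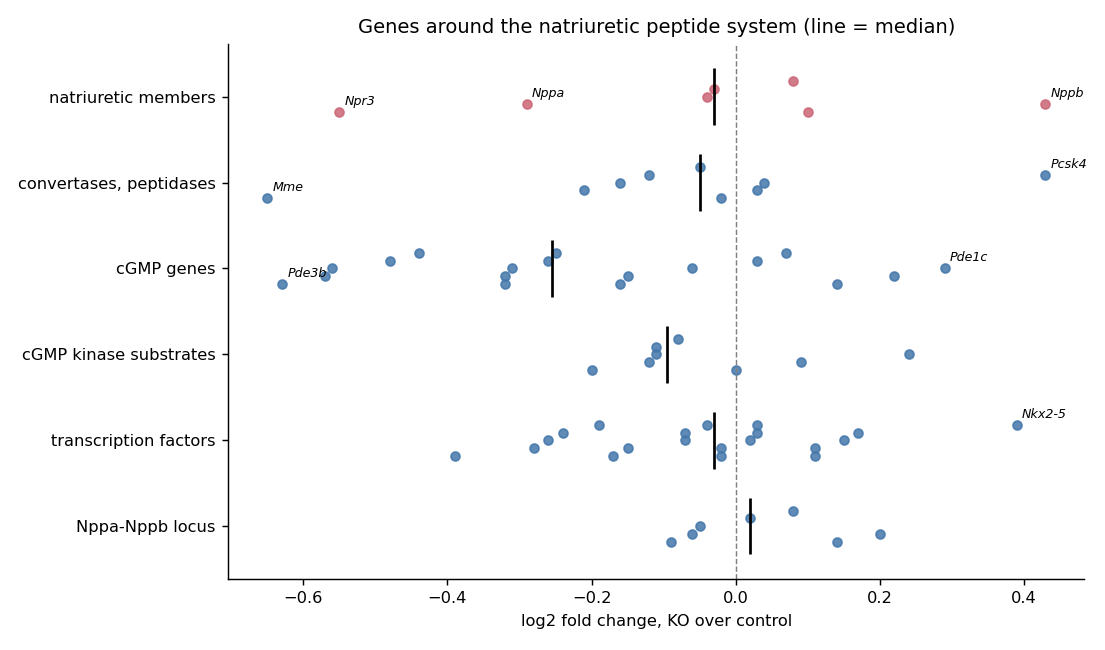
Log2 fold change of KO over control for each tested gene of the natriuretic members and the 5 related lists, 1 point per gene, with a vertical bar at the median of each list. Points for the members lie between -0.55 and 0.43, Mme is the lowest of the proteases at -0.65, and 13 of the 18 cyclic GMP genes lie below 0.

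The other marker lists were read beside these results. None of the 12 lists had a member called by edgeR, limma voom or DESeq2. In edgeR 0 to 3 members of a list had an unadjusted p under 0.05, beside 11.9% of all tested genes. Median log2 changes were 0.06 for ventricular, 0.05 for general cardiomyocyte, -0.30 for conduction, -0.18 for endothelial, -0.04 for fibroblast, -0.11 for mural, 0.14 for macrophage and 0.02 for Schwann cell markers. They were -1.77 for 3 tested epicardial and -1.55 for 3 tested adipocyte markers. In the single library control replicate 4, the summed adipocyte markers reached 37.7 CPM and the epicardial ones 31.2 CPM, against at most 6.78 and 8.11 CPM in the other libraries. Its summed Schwann cell markers, which include Sox10, reached 15.7 CPM against at most 10.03 CPM elsewhere, and all 4 were highest there. Its sums were also the highest for endocardial (249 CPM), conduction (139.9 CPM, next 131) and mural markers (1372 CPM, next 1359). The library highest in Nppa, Npr3 and Corin was therefore also the highest in the summed markers of these 6 lists and of the atrial list, and their part in those levels was not tested.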

How the data were processed

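RNA-seq libraries of 8 left ventricles were prepared with a stranded mRNA kit, per the labels' protocols. The deposited values are raw counts of reads per Ensembl gene, 1 file per library. The submitters' processing notes name STAR, HTSeq, DESeq2 and GRCm38. The sources used here do not give versions, annotation release or strand setting. Entries that name no gene were left out of library sizes: 16.8% to 20.3% of reads mapped to several places, 3.07% to 4.08% lay outside genes and 1.26% to 1.38% were ambiguous.

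Symbols and exon lengths came from GENCODE M21 (55227 identifiers matched), and upstream windows from RefSeq (GRCm38.p6). The tests were run with edgeR 4.0.16 in R 4.3.3 (filterByExpr by genotype, TMM, glmQLFit and glmQLFTest, sex as a term), which left 14695 genes. For contrasts within each sex, every combination of sex and genotype had its own mean. DESeq2 1.42.0 (without the filter, and on the filtered genes) and limma voom (3.58.1) were run beside it. Intervals are 95% and cover the spread between libraries. Single values were tested by exact two-sided permutation over 70 assignments, and log2 CPM for relations used a prior count of 0.5 (scipy 1.17.1).

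The members, the 5 related lists, the 12 marker lists and the tests were chosen with earlier results of these data known. The text names the members, Adgrf5 and Myl7, called genes of each related list or otherwise up to 4 with the smallest p, and for 4 members the 5 genes most like them with a mean of at least 1 CPM. Values outside this rule (Gm13054 and list sums) are descriptions chosen after they were seen. One sequence is not reported here. Irag1 was not matched apart from Mrvi1, the same gene. Within groups, libraries differed beyond sampling noise (chi-square per degree of freedom 14.2 to 38.5).

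On counts simulated for KO against control over 14695 genes with 200 changed, the fit recovered 66% of 1.5-fold, 87.7% of 2-fold and 97.3% of 3-fold changes. Of the calls, 6.96% were false. The changed genes had a mean of at least 1 CPM, and no sex effect was simulated. These shares are averages over genes. They need not hold for Nppa and Nppb, with a biological coefficient of variation of 0.641 and 0.303. Alternatives were other scalings and filters, no sex term, a replicate block, the atrial score or Myl7 as a covariate, and libraries left out. Leaving out the 3 libraries with Myl7 above 100 CPM and DESeq2 on filtered genes were chosen after seeing the data.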

Additional observations from a re-analysis of the deposited data

Results flagged for a closer look

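In 7 of 68 groups of 4 libraries examined, 1 library stood apart from the other 3 by Dixon's criterion. Chance meets it in about 1 in 20 independent groups of normally distributed values. The 68 groups reuse the same 8 libraries, and some genes were chosen for a small p. Whether 7 is more than chance gives was therefore not tested. Control replicate 4 was the library that stood apart in 6 of the 7. It was the highest control for Nppa at 3778 CPM, for Corin at 238 CPM, for Myl7 at 983 CPM, for Gucy1a1 at 46.5 CPM and for Pde3b at 11.7 CPM, and the lowest for Hspb6 at 884 CPM. The other was KO replicate 3, the highest KO library for Myl7 at 183 CPM.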

How the results depend on the processing

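Of 24 alternative settings, Nppb, Npr2 and Npr3 kept their direction in 24 each, Corin in 23, Npr1 in 22, Furin in 19 and Nppa in 16. The 24 include the threshold of 0.1, which cannot change a fold change. Nppa turned to 0.32 when Myl7, and to 0.61 when the atrial score, was a covariate, 0.014 in limma voom, 0.29 with the replicate block, 0.63 without the library highest in Myl7 in each genotype and 0.69 without the 3 libraries above 100 CPM of Myl7. Furin turned to 0.013, 0.029 and 0.16 with Myl7, with the atrial score and without those 3 libraries. With single libraries left out, Nppa ranged from -0.78 to 0.95, Furin from -0.12 to 0.071, Npr1 from -0.10 to 0.053 and Corin from -0.001 to 0.25. The Nppa to Nppb ratio ranged from -1.03 to 0.37, and r with Myl7 from -0.001 to 0.67 for Nppa and from -0.56 to 0.35 for Nppc. For Nppc, r was 0.03 with a prior count of 2 and 0.08 against the atrial score, and the genotype difference ranged from -0.0227 to 0.024 CPM. The cause of these turns was not tested.

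Calls over all genes, 15 in the reported fit, numbered 140 in DESeq2 without the low count filter (27953 genes) and 148 in DESeq2 on the 14695 filtered genes (added after seeing the data), 30 at a threshold of 0.1, 40 when the atrial score was a covariate, 621 in edgeR without the filter, 6 without the sex term, 3 without the 3 libraries above 100 CPM of Myl7, and 0 to 50 with single libraries left out (0 when control replicate 1 or 2 or KO replicate 2 or 3 was left out, and 50 without control replicate 3). In edgeR without the filter, members called were 2 by genotype (Nppb and Npr3), 3 by sex (Nppa, Nppb and Corin), 2 in males (Nppa and Nppb), 2 in females (Nppa and Npr3) and 2 for the difference between the sexes (Nppa and Nppb), beside 2.22%, 2.65%, 3.6%, 0.991% and 0.869% of 27953 genes. There the prior degrees of freedom of the fit were infinite, against 5.22 with the filter, so that each gene's own spread did not enter. Without the library highest in Myl7 in each genotype, 1 member was called in males, Nppb (1.09, adjusted p = 0.046 in edgeR, beside 0.708% of genes). A fit with the replicate block gave 0 calls. Deviations of same-numbered libraries correlated at 0.161, -0.032, -0.304 and 0.009, so the numbers were not taken to pair the animals. Only control replicate 1 correlated best with its own number. With single libraries left out, 3 members moved by over 1.5 times and kept their direction, Nppb (0.14 to 0.76), Npr2 (0.033, without control replicate 2, to 0.12) and Npr3 (-0.74 to -0.28). Without the 3 libraries above 100 CPM of Myl7, Nppb was 0.048, Npr3 -0.32 and Corin 0.30. When the atrial score was a covariate they were 0.24, -0.35 and 0.23, and Npr2 was 0.045. Depth did not limit the 7 tested members, but Nppc lay at the limit of 3 counts.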
